A study of Mus musculus with 6 samples.

Results

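The genes described here are 36 imprinted genes of the mouse, chosen by symbol from a list of 12 that are usually expressed from the maternal allele and 24 that are usually expressed from the paternal allele. Of these 36 genes, 28 had values among the 17577 genes of the tables, 10 maternally and 18 paternally expressed. H19, Meg3, Airn, Magel2, Peg12, Dlk1, Rtl1 and Kcnq1ot1 were not analysed here. Of the 28, 15 had a mean of at least 1 FPKM over all libraries and were tested between the genotypes, 9 maternally and 6 paternally expressed. FPKM is fragments per kilobase of transcript per M (mega) mapped fragments, a level scaled to length and to the library total.

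To determine how these genes differ with a truncation of basonuclin 1, a zinc finger transcription factor of germ cells and epithelia, germinal vesicle oocytes were compared between genotypes in C57BL/6 J mice aged 12 weeks. Bnc1tr/tr mice are homozygous for a frameshift allele that truncates the protein in every cell of the animal, and the controls are wild-type (WT) mice. Each group had 3 libraries, each from the cDNA of a single oocyte collected from the ovary and amplified by a modified Smart-seq2 protocol. The study's methods describe germinal vesicle oocytes taken from antral follicles after an injection of pregnant mare serum gonadotropin. The study counts 3 biological replicates for each group, run in duplicate. Whether the oocytes of a group came from separate mice is not stated, so p-values measure the spread between these libraries only.

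Genomic imprinting marks certain genes in the germ line so that, after fertilization, the copy from 1 parent is used and the other is silent. The mark is DNA methylation at a control region, which for most imprinted loci is laid down in the growing oocyte and for a few in sperm. A germinal vesicle oocyte at the end of growth carries chromosomes with maternal marks, and the values below are totals per gene with no allele assigned. Maternally expressed genes such as Phlda2, Cdkn1c, Igf2r and Grb10 mostly restrain growth of the embryo or placenta, and several paternally expressed genes promote it.

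Bnc1 itself was present at 9.04, 6.51 and 5.83 FPKM in Bnc1tr/tr oocytes and at 13.17, 12.54 and 16.23 FPKM in WT oocytes, a log2 fold change of -0.89 ± 0.20 (SE, the standard error of the fit, limma adjusted p = 0.0090). FPKM totals were 657550 to 724550 per library, and steps between low values put the depth at about 13.1 to 22.0 M fragments, least certain in WT replicate 3. At that depth 3 fragments on 1 kb of transcript correspond to 0.136 to 0.229 FPKM, so values near this level rest on a few fragments, and this covers counting error only. All 10 oocyte markers were at 1 FPKM or more in every library, though not all were even between the groups. Zp2 was called lower in Bnc1tr/tr oocytes, with a log2 fold change of -0.74 ± 0.22 (SE, limma adjusted p = 0.032). Without overlap or a call, Zp3 was lower and Kit, Bmp15 and Oosp1 were higher. Zp1, Gdf9, Figla, Ddx4 and Nobox overlapped. Of the granulosa markers 10 of 11 had values, with sums of 43.3 to 60.5 FPKM in Bnc1tr/tr and 22.8 to 39.9 FPKM in WT oocytes, and the defining marker Foxl2 was at 0 to 0.03 FPKM in every library of both groups. Fshr, the receptor of follicle-stimulating hormone, was at 4.54, 5.83 and 5.37 FPKM in Bnc1tr/tr and 0.31, 0.74 and 0 FPKM in WT oocytes (log2 fold change 2.24 ± 0.22, SE, limma adjusted p = 1.1e-04), and Kitl was also called higher, at 0.68 ± 0.18 (SE, limma adjusted p = 0.018). Fshr reached the mean of 1 FPKM only through the Bnc1tr/tr libraries, so its passing the filter already favoured a difference. Cyp19a1, which held most of each sum, and Nr5a2 had higher means in Bnc1tr/tr oocytes but were not called, and Inhba was too low to be tested. Other markers of this list went the other way. Inha was at 0.18, 1.81 and 0.09 FPKM in Bnc1tr/tr and 6.78, 3.45 and 0.04 FPKM in WT oocytes, with overlap and no call. Fst, Hsd17b1 and Lhcgr, all low, also had lower means in Bnc1tr/tr oocytes. The part of granulosa transcripts in the member results was not tested. Endothelial marker sums were 5.44 to 8.17 FPKM in Bnc1tr/tr and 10.2 to 11.7 FPKM in WT oocytes, over 5 markers. Most of each sum was Pecam1, at 3.16 to 5.13 FPKM in Bnc1tr/tr and 7.55 to 9.92 FPKM in WT oocytes. Kdr went the other way, at 0.53 to 1.54 and 0.07 to 0.12 FPKM, Tek overlapped, and Cdh5 and Vwf were near the floor in both groups. Immune marker sums over 6 markers were 25.7 and 52.9 FPKM in Bnc1tr/tr replicates 1 and 2, against 1.22 FPKM in replicate 3 and 1.39 to 3.0 FPKM in WT, so the results below are also given without these 2 libraries.

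Phlda2 and Slc22a18, which lie tail to tail on chromosome 7 with 2210 bases between them, showed the largest log2 fold changes among the tested members. Their promoters are printed because both of these neighbours rose, and that of Mest, the most abundant paternally expressed member, because it holds a letter pattern found at imprinted control regions. The sequences are from RefSeq on the build GRCm38.p6, cover the 250 bases before an annotated start and stop where GENCODE annotates an untranslated region. The windows of Phlda2 and Mest lie within the annotated span of their gene, since another transcript of each starts further upstream. Capitals mark CG, the dinucleotide that is methylated, and TGCCGC or its reverse complement GCGGCA, the core of the pattern bound by the imprint-protecting zinc finger protein ZFP57 when methylated. A match is only a description of the letters.
Phlda2, chr7:143502542-143502774, minus strand: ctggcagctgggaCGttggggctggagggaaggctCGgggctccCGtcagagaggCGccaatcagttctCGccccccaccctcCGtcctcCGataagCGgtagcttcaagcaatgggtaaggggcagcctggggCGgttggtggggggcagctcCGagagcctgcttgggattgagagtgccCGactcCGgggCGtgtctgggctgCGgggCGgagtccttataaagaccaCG
Slc22a18, chr7:143473539-143473735, plus strand: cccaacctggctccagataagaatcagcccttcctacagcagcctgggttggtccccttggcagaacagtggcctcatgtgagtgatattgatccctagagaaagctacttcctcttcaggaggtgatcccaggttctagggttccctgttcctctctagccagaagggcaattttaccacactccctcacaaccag
Mest, chr6:30737800-30738049, plus strand: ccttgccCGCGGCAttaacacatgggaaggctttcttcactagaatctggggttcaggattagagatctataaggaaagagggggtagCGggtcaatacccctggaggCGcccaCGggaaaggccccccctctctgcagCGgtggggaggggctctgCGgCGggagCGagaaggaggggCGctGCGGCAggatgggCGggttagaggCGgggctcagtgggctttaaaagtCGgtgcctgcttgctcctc

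Over its 250 bases the Phlda2 window held 21 CG and was 68.8% G or C, and 83.7% of 32851 windows of all genes held fewer CG. The Slc22a18 window held 0 CG, against a median of 6 over all windows. The Mest window held 14 CG and 2 matches to TGCCGC on either strand, and 8.68% of all windows held at least 1 match. Of the 29 members with a promoter entry, 6 held a match in at least 1 of their windows, Mest, Zim1, Plagl1, Mcts2, Nap1l5 and Meg3, beside 9.84% of all genes. The 7 members H19, Impact, Peg10, Sgce, Rtl1, Cdkn1c and Dcn had no entry.

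Among the 15 tested members, 4 were higher and 1 was lower in Bnc1tr/tr oocytes. A gene was called changed at a limma adjusted p under 0.05, taken over all 10560 tested genes, and an absolute log2 fold change over 0.5. All 4 higher genes, Phlda2, Slc22a18, Zim1 and Dcn, are maternally expressed, and the lower gene, Snrpn, is paternally expressed. Of all tested genes 31.8% were called changed, 24.1% higher and 7.68% lower. Higher genes made up 75.8% of all calls with FPKM as deposited, 50.8% with upper-quartile scaling, 56.0% with scaling by median ratios and 48.0% with quantile normalization, while the same 4 members were called higher each time. The 3 libraries of the groups did not overlap for 6 members that were higher and 2 that were lower in Bnc1tr/tr oocytes, where 46.8% of all tested genes did not overlap, 32.7% higher and 14.1% lower. Zim1 and Slc22a18 reached the mean of 1 FPKM only through the Bnc1tr/tr libraries, so their passing the filter already favoured a difference.

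**Figure D1:**
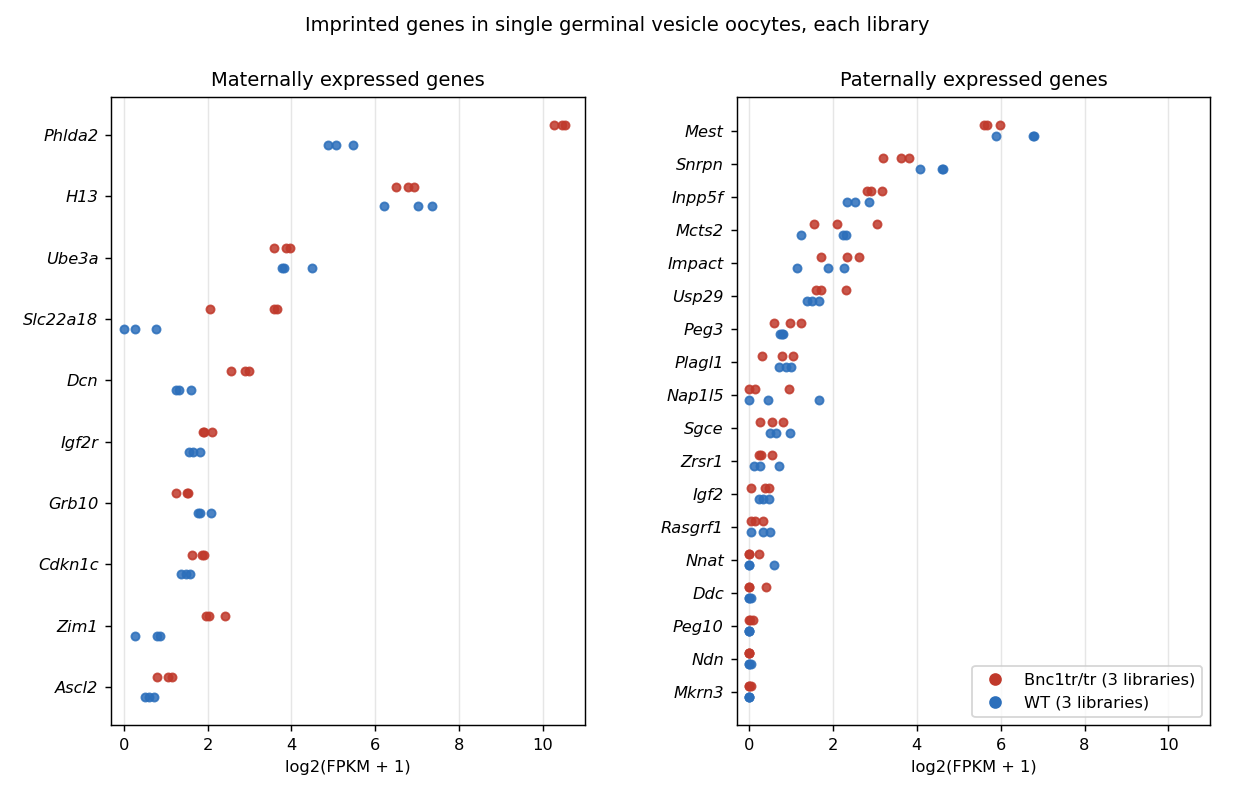
Level of each of the 28 members with values, as log2(FPKM + 1), in every library, with maternally expressed genes in the left panel and paternally expressed genes in the right panel, ordered by mean. Each point is 1 library (red, 3 Bnc1tr/tr; blue, 3 WT), and the red and blue points of Phlda2, Slc22a18, Dcn and Zim1 stand apart, with Bnc1tr/tr higher.

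Phlda2 (NCBI Gene ID 22113, chromosome 7, 143501545 to 143503145, minus strand) encodes a small pleckstrin homology domain protein that limits growth of the placenta. Its FPKM was 1470.23, 1395.85 and 1222.04 in the Bnc1tr/tr oocytes of replicates 1 to 3 and 28.17, 32.38 and 43.13 in WT oocytes. Every Bnc1tr/tr library was far above every WT library. The means were 1363 ± 127 and 34.6 ± 7.71 FPKM (SD, n = 3 each), a 39.4-fold ratio, and the log2 fold change was 5.28 ± 0.20 (SE, limma adjusted p = 1.2e-06). By log2 fold change Phlda2 ranked 10 of the 10560 tested genes, and by the gain in mean FPKM it ranked 3. Within a library it ranked 44, 58 and 69 among all listed genes in Bnc1tr/tr oocytes and 3056, 2754 and 2189 in WT oocytes. Its transcript shared 0% of its 31-base words with any other annotated gene.

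Slc22a18 (NCBI Gene ID 18400, chromosome 7, 143473726 to 143499334, plus strand) encodes a membrane transporter related to the organic cation carriers. Its FPKM was 11.64, 10.91 and 3.17 in Bnc1tr/tr oocytes and 0.21, 0.70 and 0 in WT oocytes. The groups did not overlap, Bnc1tr/tr replicate 3 was the lowest of its group, and the WT values were at the level of a few fragments. The log2 fold change was 2.75 ± 0.41 (SE, limma adjusted p = 0.0011), on the log2(FPKM + 1) scale, which understates changes of low genes, and with a pseudocount of 0.1 FPKM it was 4.69. Both genes are transcribed towards each other, and the library kit keeps no strand. Slc22a18 amounted to 0.792%, 0.782% and 0.259% of the Phlda2 level in the Bnc1tr/tr libraries and to 0.745%, 2.16% and 0% in the WT libraries, and a part of fragments beyond the end of Phlda2 in the Slc22a18 values was not tested.

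Cdkn1c encodes p57, an inhibitor of cyclin-dependent kinases, and is governed by the same control region as Phlda2 and Slc22a18. Its FPKM was 2.76, 2.65 and 2.09 in Bnc1tr/tr oocytes and 1.56, 1.80 and 2.0 in WT oocytes, with no overlap between the groups. Its log2 fold change was 0.33 ± 0.17 (SE, limma adjusted p = 0.17), it did not pass the test, and after quantile normalization it was -0.12. Of the Cdkn1c transcript 27.2% of 31-base words are shared with an antisense transcript, so its level is uncertain. Ascl2, a transcription factor of trophoblast progenitors further along the same domain, was at 1.08, 0.72 and 1.21 FPKM in Bnc1tr/tr oocytes and 0.53, 0.43 and 0.66 FPKM in WT oocytes. These values did not overlap either, but Ascl2 was below the mean of 1 FPKM and, with no filter on low values, had a limma adjusted p of 0.088.

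Within 500 kb of the Phlda2 start, a window chosen after the values were seen, 17 genes were listed and 10 tested. Tssc4, Slc22a18 and Phlda2 were higher and Acte1 was lower, 4 of 10 with Phlda2 itself included, beside 31.8% of all tested genes called changed. Tssc4 was at 26.67, 19.06 and 18.51 FPKM in Bnc1tr/tr oocytes and at 13.96, 8.15 and 4.78 FPKM in WT oocytes, a log2 fold change of 1.26 ± 0.32 (SE, limma adjusted p = 0.017). Of the genes next to Phlda2, Nap1l4 and Cars had log2 fold changes of 0.28 and 0.24, with standard errors of 0.24 and 0.25, and did not pass the test. Nap1l4 was at 80.48, 69.15 and 65.94 FPKM in Bnc1tr/tr and 75.17, 66.17 and 40.68 FPKM in WT oocytes, so its groups overlapped.

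Zim1 (NCBI Gene ID 22776, chromosome 7, 6674444 to 6696540, minus strand) encodes a zinc finger protein and lies beside the paternally expressed Peg3. Its FPKM was 3.07, 4.37 and 2.91 in Bnc1tr/tr oocytes and 0.21, 0.83 and 0.72 in WT oocytes. The groups did not overlap, and both were low. The log2 fold change was 1.5 ± 0.22 (SE, limma adjusted p = 9.5e-04), and with a pseudocount of 0.1 FPKM it was 2.5. Of its paternally expressed neighbours none was called changed. Usp29, related to ubiquitin-specific proteases, was at 4.0, 2.02 and 2.28 FPKM in Bnc1tr/tr and 1.85, 2.16 and 1.60 FPKM in WT oocytes, with overlap. Its log2 fold change was 0.36 ± 0.22 (SE, limma adjusted p = 0.24), and after quantile normalization it was -0.08. Peg3, a zinc finger gene linked to growth and maternal behaviour, was below the filter at 1.36, 0.51 and 0.97 FPKM in Bnc1tr/tr and 0.72, 0.74 and 0.66 FPKM in WT oocytes.

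Within 500 kb of the Zim1 start, again a window chosen after the values were seen, 17 genes were listed and 10 tested, of which 4 were higher in Bnc1tr/tr oocytes, Zim1 itself included, beside 24.1% of all tested genes. The other higher genes were Zscan5b, Aurkc and Zfp418, with log2 fold changes of 1.70, 1.09 and 1.03. Aurkc encodes Aurora kinase C, a kinase of meiotic chromosome segregation in oocytes, and was at 1076.94, 816.19 and 819.81 FPKM in Bnc1tr/tr oocytes and 466.78, 395.27 and 400.18 FPKM in WT oocytes.

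**Figure D2:**
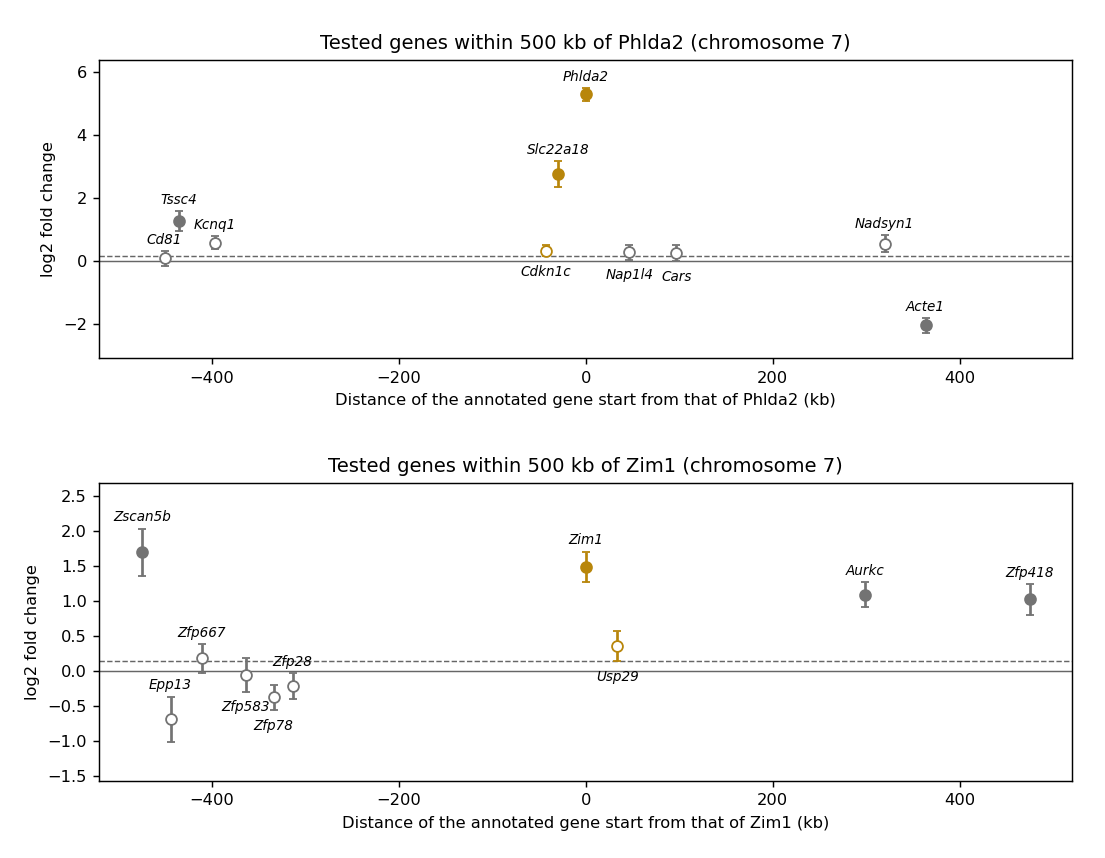
Log2 fold change, Bnc1tr/tr minus WT, of each tested gene within 500 kb of the starts of Phlda2 (top) and Zim1 (bottom) against the distance between annotated gene starts in kb. Bars are standard errors, filled points passed the test, yellow points are members of the imprinted list, and the dashed line is the median of all tested genes, 0.15; Phlda2 at 5.28 and Slc22a18 at 2.75 stand above all other genes of their window.

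Dcn (NCBI Gene ID 13179, chromosome 10, 97479500 to 97518163, plus strand) encodes decorin, a proteoglycan of the extracellular matrix that stromal cells make and whose imprinting is known from the placenta. Its FPKM was 6.46, 6.95 and 4.93 in Bnc1tr/tr oocytes and 1.36, 1.48 and 2.02 in WT oocytes. The groups did not overlap, and the log2 fold change was 1.44 ± 0.19 (SE, limma adjusted p = 5.1e-04). Sums of theca and stroma markers were also higher in Bnc1tr/tr oocytes. Within WT these sums fell over replicates 1 to 3, at 2.54, 1.79 and 0.78 FPKM, while Dcn rose. Of 10 such markers 7 had values, 5 to 6 were above 0 in Bnc1tr/tr and 3 to 4 in WT libraries, and their sums were 6.89 to 8.89 and 0.78 to 2.54 FPKM. Col1a1, the defining collagen, was at 0 to 0.01 FPKM in every library, and most of the sum was Cyp11a1, a steroid-making enzyme, at 5.29 to 6.08 FPKM in Bnc1tr/tr and 0.60 to 2.17 FPKM in WT oocytes. Pdgfra, at 0.38 to 0.63 FPKM in Bnc1tr/tr and 0.04 to 0.07 FPKM in WT oocytes, did not overlap. Star and Cyp17a1 did overlap, and Acta2 was near the floor. The part of theca or stromal cells in the Dcn result was not tested. Lum, the gene of the related proteoglycan lumican next to Dcn, is on the same marker list. It was at 0.53, 2.23 and 0.41 FPKM in Bnc1tr/tr oocytes and at 0 in every WT oocyte.

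Snrpn (NCBI Gene ID 20646, chromosome 7, 59982495 to 60450177, minus strand) encodes SmN, a core protein of the spliceosome, and is the paternally expressed gene that fell. Its FPKM was 13.06, 11.22 and 8.22 in Bnc1tr/tr oocytes and 23.25, 23.52 and 15.93 in WT oocytes. Every Bnc1tr/tr library was below every WT library, although the highest Bnc1tr/tr and the lowest WT value were close. The log2 fold change was -0.89 ± 0.22 (SE, limma adjusted p = 0.016). The call did not hold without Bnc1tr/tr replicate 3 (adjusted p = 0.057) or without WT replicate 2 (adjusted p = 0.065). Of the Snrpn transcript 34.5% of 31-base words are shared with other genes, 23.7% with a transcript that overlaps it on the same strand, so its level is uncertain. Ube3a, the ubiquitin ligase of the same domain whose imprinting is known from neurons, is maternally expressed and was at 13.69, 11 and 14.58 FPKM in Bnc1tr/tr and 12.80, 13.22 and 21.54 FPKM in WT oocytes, with overlap (log2 fold change -0.23 ± 0.23, SE, limma adjusted p = 0.48). Ndn and Mkrn3, paternally expressed genes of that domain, were at or near 0 in every library.

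Mest (chromosome 6, 30733506 to 30748466, plus strand) encodes an enzyme of the alpha/beta hydrolase family and was the most abundant paternally expressed member. Its FPKM was 62.01, 47.73 and 50.12 in Bnc1tr/tr oocytes and 110.03, 108.38 and 58.63 in WT oocytes. WT replicate 3 fell among the Bnc1tr/tr values, so the groups overlapped. The log2 fold change was -0.74 ± 0.26 (SE, limma adjusted p = 0.058), which did not pass the test. Mest passed it without WT replicate 3, at -1.03 (adjusted p = 0.0035), and also under all 3 scalings tried, at -1.01 with upper quartiles (adjusted p = 0.0085), -0.95 with median ratios (adjusted p = 0.012) and -0.81 with quantile normalization (adjusted p = 0.027). Of the Mest transcript 22.0% of 31-base words are shared with Copg2, which overlaps its end on the opposite strand.

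Grb10 and Igf2r, maternally expressed restraints on insulin and insulin-like growth factor signalling, had log2 fold changes of opposite sign that did not pass the test, a contrast that was lost with quantile normalization. Grb10 was at 1.84, 1.87 and 1.39 FPKM in Bnc1tr/tr and 3.26, 2.55 and 2.44 FPKM in WT oocytes, with no overlap. Its log2 fold change was -0.47 ± 0.17 (SE, limma adjusted p = 0.065), and it was called lower with a pseudocount of 0.1 FPKM (adjusted p = 0.047), with upper quartiles (adjusted p = 0.014), with median ratios (adjusted p = 0.019) and with quantile normalization (adjusted p = 0.0028). Igf2r, the receptor that clears insulin-like growth factor 2, was at 3.32, 2.69 and 2.75 FPKM in Bnc1tr/tr and 2.55, 2.16 and 1.93 FPKM in WT oocytes, also with no overlap. Its log2 fold change was 0.29 ± 0.16 (SE, limma adjusted p = 0.22), and -0.15 after quantile normalization. Igf2, the growth factor itself, was at 0.04 to 0.40 FPKM in the 6 libraries, and 63.1% of its 31-base words are shared with other genes, 61.9% with an overlapping transcript on the same strand.

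H13 and Mcts2 share a locus on chromosome 2, where Mcts2, a paternally expressed gene copied by retrotransposition, lies within H13, the maternally expressed gene of signal peptide peptidase. H13 was at 120.82, 109.77 and 88.73 FPKM in Bnc1tr/tr and 162.66, 129.09 and 73.21 FPKM in WT oocytes, with overlap and a log2 fold change of -0.13 ± 0.28 (SE, limma adjusted p = 0.77). Mcts2 was at 1.93, 3.30 and 7.35 FPKM in Bnc1tr/tr and 3.96, 3.69 and 1.35 FPKM in WT oocytes. Its log2 fold change was 0.31 ± 0.40 (SE, limma adjusted p = 0.59), and its spread between libraries exceeded the difference between genotypes.

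The remaining tested members, both paternally expressed, did not pass the test. Inpp5f, a phosphatase of phosphoinositide lipids, was at 8.0, 6.53 and 6.01 FPKM in Bnc1tr/tr and 4.80, 4.05 and 6.26 FPKM in WT oocytes, with overlap through WT replicate 3 (log2 fold change 0.39 ± 0.19, SE, limma adjusted p = 0.16). Impact, an inhibitor of the GCN2 stress kinase that is abundant in neurons, was at 4.02, 5.18 and 2.26 FPKM in Bnc1tr/tr and 2.70, 3.82 and 1.2 FPKM in WT oocytes, with overlap (log2 fold change 0.46 ± 0.32, SE, limma adjusted p = 0.32).

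**Figure D3:**
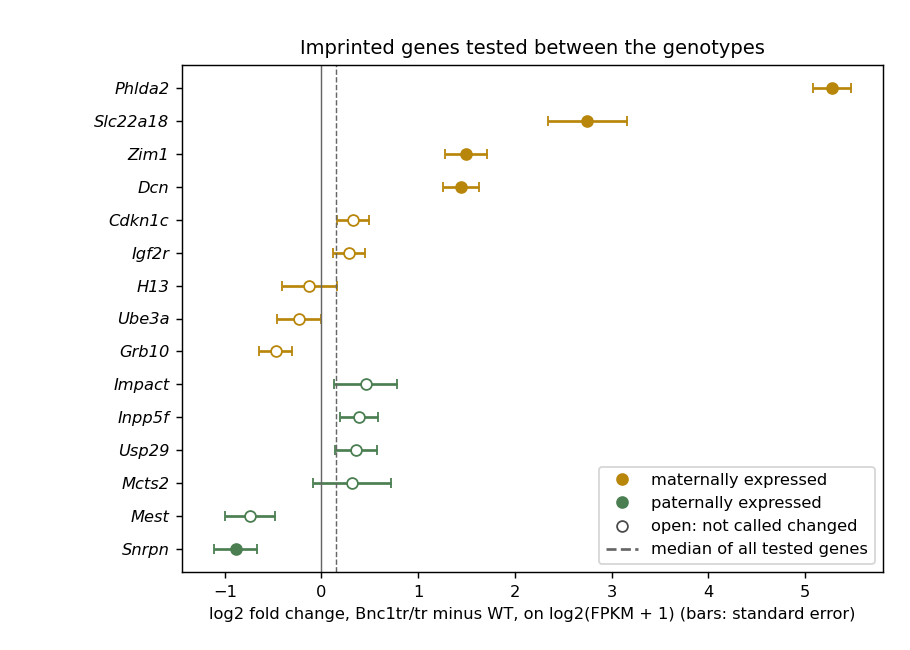
Log2 fold change, Bnc1tr/tr minus WT on log2(FPKM + 1), of the 15 tested members, maternally expressed in yellow and paternally expressed in green, with standard errors as bars. Filled points passed the test, and the dashed line is the median of all tested genes, 0.15; Phlda2 at 5.28 and Slc22a18 at 2.75 lie to the right, and Snrpn at -0.89 and Mest at -0.74 to the left.

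Of the 13 listed members below the filter, 12 are paternally expressed, and none was called changed by limma when all genes above 0 were fitted, where Ascl2 alone had an unadjusted p under 0.05. Besides Peg3 and Ascl2, Plagl1 and Nap1l5 reached 1 FPKM in at least 1 library. Plagl1, a zinc finger regulator of imprinted genes, was at 1.05, 0.71 and 0.23 FPKM in Bnc1tr/tr and 0.65, 0.85 and 0.99 FPKM in WT oocytes. Nap1l5, a nucleosome assembly protein-like gene that lies within Herc3, was at 0, 0.92 and 0.10 FPKM in Bnc1tr/tr and 2.16, 0.36 and 0 FPKM in WT oocytes. Both pairs of groups overlapped. The other 9, Igf2, Ndn, Mkrn3, Ddc, Nnat, Peg10, Sgce, Zrsr1 and Rasgrf1, stayed below 1 FPKM in every library, with Sgce the highest at 0.95 FPKM.

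The members at 1 FPKM or more were counted in each library by class. In Bnc1tr/tr oocytes 9 to 10 of 10 maternally expressed genes and 6 to 8 of 18 paternally expressed genes were at 1 FPKM or more, and in WT oocytes 7 of 10 and 6 to 7 of 18. Over all listed genes the share at 1 FPKM or more was 60.8% to 62.8% in Bnc1tr/tr and 54.2% to 55.5% in WT libraries, so detection was wider in Bnc1tr/tr oocytes for genes in general. The summed level of the maternally expressed genes was 1343.80 to 1634.91 FPKM in Bnc1tr/tr and 147.65 to 213.31 FPKM in WT oocytes. Without Phlda2 it was 121.76 to 164.68 and 104.52 to 185.14 FPKM, with overlap. For the paternally expressed genes the sums were 78.68 to 96.70 and 88.47 to 152.10 FPKM, again with overlap.

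The medians of both classes were small beside the values of Phlda2 and Slc22a18. The median log2 fold change was 0.33 over the 9 tested maternally expressed genes and 0.34 over the 6 tested paternally expressed genes, beside 0.15 over all tested genes, and with quantile normalization it was -0.12 and -0.08. Relative to the median of all genes these are 0.18 and 0.19, and on that scale Phlda2, Slc22a18, Zim1, Dcn and Snrpn were at 5.13, 2.61, 1.35, 1.29 and -1.03. Of the 9 maternally expressed genes 4 were called higher and 0 lower by limma, 5 had an unadjusted p under 0.05, of which Grb10 had a negative fold change, and 6 were higher and 1 lower with no overlap between the groups. Beside these counts stand the 24.1% called higher and 7.68% called lower of all tested genes, and the 32.7% and 14.1% that did not overlap, and Zim1 and Slc22a18 are among the 4 although they passed the filter only through the Bnc1tr/tr libraries. Of the 6 paternally expressed genes 0 were called higher and 1 lower, Snrpn, which was also the only 1 of the 6 without overlap, and 2 had an unadjusted p under 0.05, Snrpn and Mest, both with negative fold changes. Without Bnc1tr/tr replicate 3 or WT replicate 2 the lower count was 0, without WT replicate 3 it was 2, and the median of the paternally expressed genes was 0.17 without Bnc1tr/tr replicate 3 and 0.06 without WT replicate 3. Under all 3 scalings the maternally expressed Grb10 and the paternally expressed Mest were also called lower. A difference between the classes was not tested.

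By the parent whose germ line methylates the locus, 14 of the tested members belong to loci marked in the oocyte, of which 3 were higher and 1 lower, with a median of 0.32, beside 24.1% higher, 7.68% lower and a median of 0.15 over all tested genes. The 3 higher genes were Phlda2, Slc22a18 and Zim1. Slc22a18 and Zim1 passed the filter only through the Bnc1tr/tr libraries, and Phlda2 and Slc22a18 share a control region. Igf2 and Rasgrf1 are the listed members at loci marked in sperm, and both were below the filter. Dcn was assigned to neither.

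When the 2 Bnc1tr/tr libraries with immune marker transcripts were left out, a choice made after the data were seen, Bnc1tr/tr replicate 3 was set against the WT libraries on the assumption that it varies as they do. Phlda2 was then the only member called changed, at a log2 fold change of 5.13 (limma adjusted p = 0.010). Slc22a18 was at 1.71 (adjusted p = 0.061), Dcn at 1.19 (adjusted p = 0.059), Zim1 at 1.32 (adjusted p = 0.080) and Snrpn at -1.23 (adjusted p = 0.087), each in its former direction, and all genes called numbered 880. Among the immune markers Lyz2, the lysozyme of macrophages, was at 5.81, 47.97 and 0 FPKM in the Bnc1tr/tr libraries. Slc22a18, Phlda2, Dcn, Zim1 and Snrpn were also lowest in replicate 3 of the Bnc1tr/tr libraries, which for Snrpn is the value furthest from WT. The uncalled Cdkn1c, Grb10, Impact, Inpp5f and H13 were lowest there too, while Igf2r, Usp29, Mest, Ube3a and Mcts2 were not. The part of immune marker transcripts in the member results was not tested.

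To determine whether genes that set or protect imprints differed as well, a list of 29 such factors was read from the same comparison, of which 26 were tested. Arid4b and Arid4a were higher and Nlrp2 and Nlrp5 were lower, 4 of 26 beside 31.8% of all tested genes called changed, and the median was 0.05 beside 0.15 over all tested genes. Arid4a, which takes part in imprint control in the Snrpn domain, was at 47.36, 50.10 and 48.11 FPKM in Bnc1tr/tr and 22.47, 25.54 and 23.69 FPKM in WT oocytes, a log2 fold change of 0.99 ± 0.15 (SE, limma adjusted p = 0.0014). Its relative Arid4b had a log2 fold change of 1.13 ± 0.20 (SE, limma adjusted p = 0.0031). Nlrp2, a maternal-effect gene, was at 54.80, 40.21 and 35.91 FPKM in Bnc1tr/tr and 106.50, 97.08 and 60.22 FPKM in WT oocytes, a log2 fold change of -0.98 ± 0.25 (SE, limma adjusted p = 0.018). Nlrp5, a part of the subcortical maternal complex of the oocyte, had a log2 fold change of -0.62 ± 0.18 (SE, limma adjusted p = 0.026). Without WT replicate 3 the list had 7 changed genes, and without Bnc1tr/tr replicate 2, Bnc1tr/tr replicate 3 or WT replicate 2 it had 2.

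Enzymes and binding proteins at the centre of imprint setting were not called changed. Setdb1 and Ctcf were higher with no overlap between the groups. On the whole list 4 of 26 tested genes were higher without overlap, beside 32.7% of all tested genes. Setdb1 had a log2 fold change of 0.45 ± 0.15 (SE, limma adjusted p = 0.047), under the size of 0.5 needed for a call. Ctcf had a log2 fold change of 0.59 ± 0.20 (SE, limma adjusted p = 0.053). Dnmt3a, the methyltransferase that lays down oocyte imprints, had a log2 fold change of -0.28, its cofactor Dnmt3l -0.24 and the maintenance enzyme Dnmt1 0.09, with standard errors of 0.18, 0.25 and 0.20. Zfp57 was at 744.18, 746.82 and 670.18 FPKM in Bnc1tr/tr and 680.47, 590.57 and 604.40 FPKM in WT oocytes, with overlap and a log2 fold change of 0.21 ± 0.16 (SE, limma adjusted p = 0.36). Trim28, the corepressor that ZFP57 recruits, was at 0.19 and Dppa3, which protects maternal methylation after fertilization, at -0.31, with standard errors of 0.21 and 0.25.

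A further list of 45 genes reported as imprinted in some mouse tissue had 34 with values and 19 tested, of which 5 were higher and 2 lower, with a median of 0.26, beside 24.1% higher, 7.68% lower and a median of 0.15 over all tested genes. Cobl, an actin nucleator next to Grb10, was at 13.18, 10.72 and 14.27 FPKM in Bnc1tr/tr and 1.17, 2.32 and 1.63 FPKM in WT oocytes, a log2 fold change of 2.36 ± 0.20 (SE, limma adjusted p = 5.2e-05). Herc3, Tssc4, Asb4 and Qpct had log2 fold changes of 1.34, 1.26, 1.19 and 0.92. Of the higher genes, Qpct reached the mean of 1 FPKM only through the Bnc1tr/tr libraries, so its passing the filter already favoured a difference. Th, the tyrosine hydroxylase of catecholamine synthesis, was at 6.61, 6.98 and 4.89 FPKM in Bnc1tr/tr and 24.84, 27.42 and 13.95 FPKM in WT oocytes, a log2 fold change of -1.65 ± 0.26 (SE, limma adjusted p = 0.0016). Ampd3, an AMP deaminase, had a log2 fold change of -1.15.

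**Figure D4:**
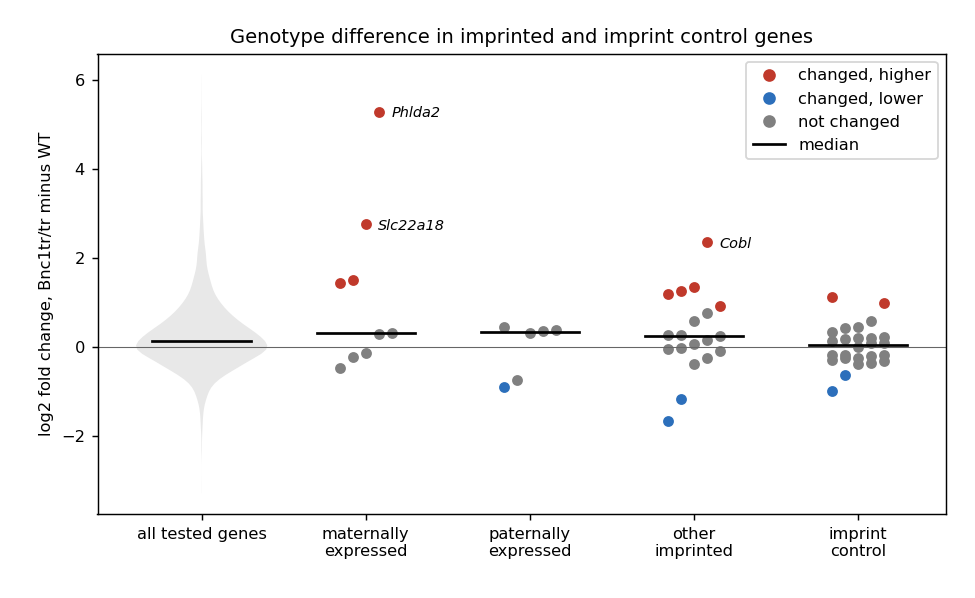
Log2 fold change, Bnc1tr/tr minus WT, of all 10560 tested genes (grey shape) and of the tested genes of 4 lists: 9 maternally expressed, 6 paternally expressed, 19 other imprinted and 26 imprint control genes. Each point is 1 gene, red and blue points passed the test, and black lines are medians, which are 0.15, 0.33, 0.34, 0.26 and 0.05 from left to right.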

How the data were processed

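Libraries of single germinal vesicle oocytes, 3 Bnc1tr/tr and 3 WT, were grouped by the genotype in the labels. The authors deposited 1 table per library with FPKM for the same 17577 genes by NCBI Gene ID. The submitters' processing notes name HISAT2 2.0.4, Bowtie2 2.2.5, RSEM 1.2.12 and the build GRCm38.p6. As FPKM divides by the library's mapped fragments, a few abundant transcripts that change shift every other value. Amplified cDNA was counted without molecular identifiers. No fragment counts accompany the values, so the spacing of low FPKM values served to estimate depth.

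Of the gene symbols, 25 that a spreadsheet had turned into dates were replaced through the Gene ID, and 17470 IDs were found in RefSeq. The genotypes were compared by limma 3.58.1 (R 4.3.3) on log2(FPKM + 1) over genes whose mean reached 1 FPKM, with Benjamini-Hochberg adjustment over all 10560 genes. A changed gene had an adjusted p below 0.05 and a log2 fold change beyond 0.5 in size. The fit was tested on simulated data. Overlap and shared 31-base words came from GENCODE M21, gene coordinates and promoters from RefSeq on GRCm38.p6, and figures from matplotlib 3.10.9 in Python 3.11.15.

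The members and the other gene lists were chosen with earlier results of these data known. Every member is accounted for, those whose mean reached 1 FPKM by their values in each library. From the other lists up to 4 called genes per direction were named by size, and Qpct, genes of the core imprinting machinery, neighbours and single markers were named after their values were seen. Alternatives were a pseudocount of 0.1 FPKM, no filter or a minimum mean of 5 FPKM, 3 scalings, a larger fold threshold, a replicate block and leaving out each library. Leaving out 2 libraries with immune markers was added after seeing the data.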

Additional observations from a re-analysis of the deposited data

How the results depend on the processing

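Phlda2, Slc22a18, Zim1 and Dcn were called higher under every setting in which they were tested with at least 5 libraries, and a minimum mean of 5 FPKM left only Phlda2 of them tested. With that minimum 2046 genes were called, among them 2 members, 1 maternally expressed gene and 4 of the other imprinted genes, and the medians of maternally and paternally expressed genes were -0.13 and -0.74. An absolute log2 fold change over 1 left 1677 genes, 0 paternally expressed genes and 1 imprint control gene, and Bnc1, at -0.89, was not called. Upper-quartile, median-ratio and quantile scaling each called 2 paternally expressed genes, with medians of 0.135, 0.178 and -0.0812, and the maternally expressed median was -0.12 after quantile normalization. These scalings and the pseudocount of 0.1 FPKM each called 5 maternally expressed genes, since Grb10 was called lower. With no filter the paternally expressed median was -0.0184. The cause of these shifts was not tested.

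Quantile normalization reversed Igf2r to -0.15, Usp29 to -0.0783, Cdkn1c to -0.12 and Mcts2 to -0.0842. Leaving out 1 library at a time, H13 ranged from -0.453 to 0.117, higher than 0 without WT replicate 1, and Mcts2 from -0.0966 to 0.659, lower than 0 without Bnc1tr/tr replicate 3 and, at -0.031, without WT replicate 3. The same omissions called 0 to 2 paternally expressed genes, with medians of 0.0554 to 0.362, and 2 to 7 imprint control genes. Leaving out Bnc1tr/tr replicates 1 and 2 gave 880 genes, 1 member, 1 maternally expressed gene, 0 paternally expressed genes, 0 imprint control genes and 1 of the other imprinted genes, a paternally expressed median of 0.0687, Impact at -0.0598 and Bnc1 at -1.13 (limma adjusted p = 0.065). Of 216 alternatives over the tested members, 192 kept direction and call.

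Whether libraries of the same replicate number form a pair is not given by the labels. The study states that littermates were compared, without naming the litter of any library. Residuals of same-numbered libraries correlated at 0.28, -0.03 and 0.12, beside a mean of -0.06 for different numbers. Of the 6 libraries 3 correlated best with their own number. Residuals cancel within each group, which ties the mean for different numbers to the same-numbered values, so these correlations cannot settle a pairing. A replicate block called 3733 genes, and 2 paternally expressed genes in place of 1, since Mest passed at -0.74 (adjusted p = 0.029). The block changed no other member's call.

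Depth, known only as an estimate, limits members below 1 FPKM, and single oocytes in groups of 3 limit precision.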
